A study of Mus musculus with 10 samples.

Results

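The genes described here were 9 genes known as marks of neurons in layers 2 to 4 of the neocortex. They were the calcium buffer *Calb1*, the homeobox genes *Cux1*, *Cux2*, *Lhx2*, *Pou3f2* and *Pou3f3*, the nuclear receptor gene *Rorb*, the signalling gene *Rasgrf2* and the cell adhesion gene *Mdga1*. The rule named them by symbol, all 9 were found among the 22000 genes of the count table, and all 9 were among the 14344 genes that passed the filter on low counts. The set was chosen by the known layer of its genes and by the counts of *Calb1* in these KO and WT mice, which were already known to differ. The contrast of KO with WT mice is therefore given as a description of the 9 genes, with no p of its own. How many of them passed the test over all genes is also a description. The share of all genes that passed is given for the main fit.

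RNA from the prefrontal cortex (PFC) of 5 *Zbtb16* KO and 5 wild-type (WT) mice, all labelled male and aged 7 weeks, was sequenced as 10 stranded mRNA libraries. KO mice were homozygous for *lu*, a constitutive nonsense point mutation carried by strain B6.C3-*Zbtb16* lu/J, and no other allele or agent is named for either group. Each label names 1 mouse number per library, and no source used here gives the litter of these mice or says whether tissue was pooled, so p-values measure the spread between these 10 libraries. The libraries held 30220122 to 51231439 counts, and the 9 genes had 566 to 13124 counts per library. The mutated gene, *Zbtb16*, was lower in all 5 KO mice, at 42.1 to 52.8 CPM (read counts scaled to the size of the library) against 70.7 to 88.3 CPM in WT mice.

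Pyramidal neurons of layers 2 to 4 connect mainly within the cortex, whereas those of layers 5 and 6 also project to the brainstem, spinal cord and thalamus. Upper-layer identity is set up during development by homeobox genes such as *Cux2* and *Pou3f2*, while *Rorb* marks the layer that receives thalamic input, which is poorly formed in the rodent PFC. Calbindin, the product of *Calb1*, binds calcium in the cytosol of many superficial pyramidal neurons, some interneurons and the spiny projection neurons of the striatum.

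The labels were first checked against these cell types. Genes of cortical excitatory neurons, such as *Slc17a7* and *Camk2a*, summed to 7048 to 8419 CPM in KO and 6993 to 7670 CPM in WT mice, and none of the 6 was at 0 in any mouse. KO mouse 3 held 0.0309 CPM of 4 Y-linked genes against 145.1 to 171.4 CPM in the other 9 mice. Its counts thus did not bear out its male label. The reason was not tested, and the mouse was kept under its label. KO mouse 5 had the deepest library and a weight of 0.87 on the first surrogate variable, against -0.30 to 0.11 for the other mice. These variables, 3 in all, were estimated from the expression matrix itself to absorb library differences that no label records. Fold changes without each of these mice are given for the 9 genes and *Stard8*.

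*Calb1* (ENSMUSG00000028222.2, chr4:15881264-15908064, plus strand, GRCm38, 10 exon blocks) was measured at 190.8, 182.0, 184.4, 182.0 and 201.5 CPM in KO mice 1 to 5. In WT mice 1 to 5 it was measured at 147.5, 154.4, 134.7, 144.6 and 143.9 CPM. The lowest KO mouse lay above the highest WT mouse, so the groups did not overlap. Over all genes tested, 1.58% had groups that did not overlap, 0.899% with every KO mouse above every WT mouse and 0.683% with every KO mouse below. The KO mean was 130% of the WT mean, with a log2 fold change of 0.38 (standard error 0.041). It was 0.38 without KO mouse 3 and 0.38 without KO mouse 5. In these bulk samples, more cells of a type and more RNA per cell cannot be told apart.

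The spread of *Calb1* between mice of a genotype was the smallest of the 9 genes, with a coefficient of variation of 4.40% in KO and 4.90% in WT mice. The largest were 20.3% for *Mdga1* in KO mice and 21.2% for *Rorb* in WT mice. To compare genes within a mouse, *Calb1* was also expressed against the other 8 genes of the same library. Its log2(CPM + 1) exceeded their mean by 1.16 to 1.40 in KO and by 0.88 to 0.98 in WT mice. Set against the mean of 24 other upper-layer genes, the excess was 1.98 to 2.29 in KO and 1.60 to 1.70 in WT mice. The groups did not overlap on either scale, but *Calb1* was chosen for its difference between these mice, so this is no further support.

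**Figure D1:**
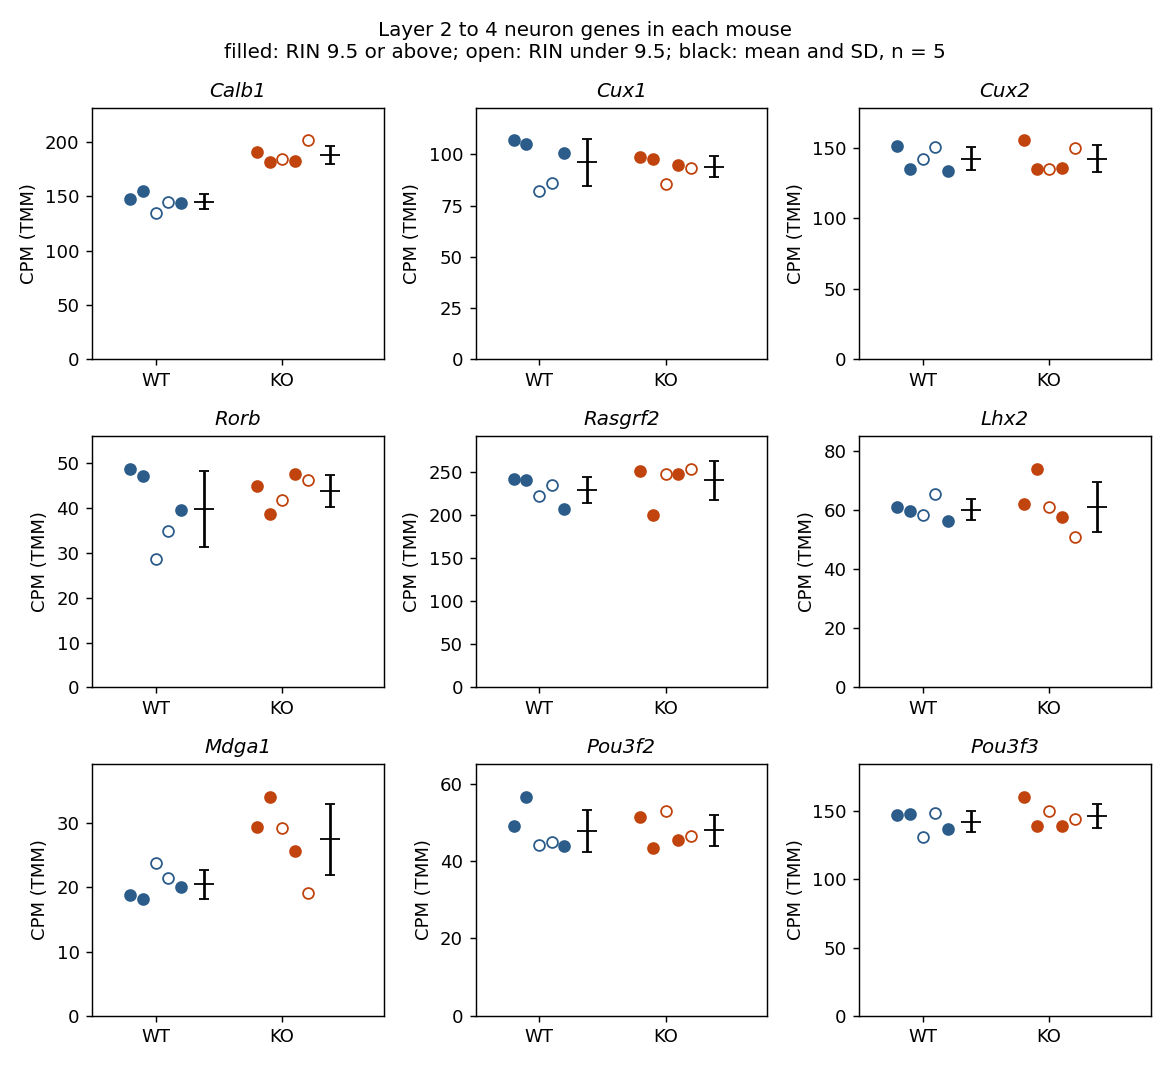
Expression of the 9 upper-layer genes in each mouse, in CPM on axes that start at 0, with WT mice in blue and KO mice in red from mouse 1 on the left to mouse 5 on the right of each group, filled where the RNA integrity number (RIN) was 9.5 or above and open below. Black bars give the mean and SD of 5 mice. The 5 KO mice lie between 182.0 and 201.5 CPM for *Calb1*, all above the WT mice, while the groups overlap for the other 8 genes.

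*Mdga1* (ENSMUSG00000043557.16, chr17:29827949-29970087, minus strand) encodes a membrane-anchored immunoglobulin-family protein that binds neuroligins. It stood at 29.4, 34.1, 29.2, 25.6 and 19.1 CPM in KO mice 1 to 5 and at 18.8, 18.2, 23.7, 21.4 and 20.1 CPM in WT mice 1 to 5. Of the KO mice, 4 were above the highest WT mouse, and KO mouse 5 lay within the WT range, so the groups overlapped. With a mean of 27.5 ± 5.56 CPM in KO and 20.5 ± 2.21 CPM in WT mice (SD, n = 5 each), the log2 fold change was 0.41 (standard error 0.067). It was 0.44 without KO mouse 3 and 0.45 without KO mouse 5.

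*Rorb* (ENSMUSG00000036192.15, chr19:18930605-19111196, minus strand), a retinoic acid receptor-related orphan receptor of layer 4 neurons, was measured at 44.9, 38.7, 41.9, 47.7 and 46.2 CPM in KO mice 1 to 5. The WT values were 48.8, 47.2, 28.6, 34.9 and 39.5 CPM. The highest and the lowest values both belonged to WT mice, and no KO mouse left the WT range. Its log2 fold change of 0.26 (standard error 0.085) was 0.14 without surrogate variables, 0.24 without KO mouse 3 and 0.31 without KO mouse 5. *Rasgrf2*, a calcium-responsive exchange factor for Ras (chr13:91880400-92131656, minus strand), had 250.8, 200.4, 247.9, 247.5 and 253.6 CPM in KO mice 1 to 5. In WT mice it had 241.7, 240.8, 221.5, 234.5 and 207.0 CPM. Here 4 KO mice were above every WT mouse and KO mouse 2 was below every WT mouse, with a log2 fold change of 0.11 (standard error 0.037), 0.10 without KO mouse 3 and 0.08 without KO mouse 5.

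The 5 homeobox genes had log2 fold changes closer to 0. *Cux2* (chr5:121856366-122050102, minus strand), a regulator of dendrites and spines of upper-layer neurons, was measured at 155.4, 135.2, 135.1, 135.7 and 149.9 CPM in KO mice 1 to 5. In WT mice it was measured at 151.2, 135.1, 141.9, 150.6 and 133.5 CPM, and the log2 fold change was -0.0012 (standard error 0.045). High and low mice were thus found in both genotypes. *Cux1*, the related gene on the same chromosome (chr5:136248135-136567490, minus strand), lay between 85.4 and 98.9 CPM in KO and between 81.9 and 106.8 CPM in WT mice, with a log2 fold change of 0.02 (standard error 0.061). Of its exon length, 1.97% overlaps the antisense gene *Gm16599*, and whether the counting used strand is not given in the sources used here.

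*Lhx2*, a LIM homeobox gene of cortical progenitors and upper-layer neurons (chr2:38339281-38369733, plus strand), ranged from 50.9 to 74.0 CPM in KO and from 56.5 to 65.6 CPM in WT mice. Both extremes were KO mice, with KO mouse 5 lowest and KO mouse 2 highest, and the log2 fold change was 0.02 (standard error 0.050). The single-exon POU domain genes *Pou3f2* (chr4:22482780-22488366, minus strand) and *Pou3f3* (chr1:42695768-42703176, plus strand) act together in upper-layer neuron production and migration. *Pou3f2* ranged from 43.6 to 53.1 CPM in KO and from 43.9 to 56.7 CPM in WT mice, and *Pou3f3* from 138.9 to 160.5 CPM in KO and from 131.5 to 148.5 CPM in WT mice. Both had a log2 fold change of 0.08, with standard errors of 0.067 and 0.045. Without KO mouse 3 the log2 fold changes of *Cux1*, *Cux2*, *Lhx2*, *Pou3f2* and *Pou3f3* were 0.04, 0.03, 0.04, 0.05 and 0.08, and without KO mouse 5 they were 0.08, 0.0053, 0.07, 0.08 and 0.08. Without surrogate variables they were -0.03, -0.0012, 0.02, 0.0061 and 0.04. The log2 fold change of *Cux1* kept its sign in 11 of 21 alternatives and that of *Cux2* in 10. None of the 9 genes lies on chromosome 9, which carries *Zbtb16*.

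Among all genes, 0.844% passed FDR < 0.05 in edgeR's quasi-likelihood test 0.6% as higher and 0.244% as lower in KO mice. Of the 9 genes, 2 passed, *Calb1* and *Mdga1*, both higher, and nothing is read from this count because the list was drawn up with the contrast known. The count was 1, *Calb1*, without surrogate variables and also without WT mouse 5, and it was 3, with *Rorb* added, without KO mouse 2 and also without WT mouse 1. Log2 fold changes were above 0 for 8 of the 9 genes with a median of 0.08, beside 48.1% of all tested genes and a median of -0.0044. Without WT mouse 3 the median was 0.04 with 6 of 9 above 0, and without surrogate variables it was 0.04 with 7 of 9 above 0.

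Levels can be ranked between genes only per length of exon. In WT mice, *Calb1* had the highest level at 29.9 ± 1.47 CPM per kb, followed by *Rasgrf2* at 24.8 ± 1.60, *Pou3f3* at 19.2 ± 1.04, *Cux2* at 14.1 ± 0.825 and *Lhx2* at 13.7 ± 0.790 CPM per kb (SD, n = 5). Lower levels were found for *Pou3f2* at 8.55 ± 0.965, *Cux1* at 4.80 ± 0.570, *Rorb* at 3.59 ± 0.764 and *Mdga1* at 2.15 ± 0.232 CPM per kb (SD, n = 5). The values of *Cux2* and *Lhx2*, and those of *Cux1* and *Rorb*, overlapped between mice, while the other neighbours in this order did not. KO mice had the same order, with *Calb1* at 38.8 ± 1.71 CPM per kb (SD, n = 5), and there *Rorb* and *Mdga1* overlapped as well.

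To place the 9 genes among their layers, 24 other genes of layers 2 to 4 and 17 genes of layers 5 and 6 were examined in the same fit. Of the 24 upper-layer genes, 1 passed FDR < 0.05, 7 had an unadjusted p under 0.05, 13 had log2 fold changes above 0, and the median was 0.02. Over all tested genes, 10.6% (1522 of 14344) had an unadjusted p under 0.05. The gene that passed was *Stard8*, which encodes a protein with a lipid-binding START domain, with 67.3 ± 10.8 CPM in KO and 63.5 ± 4.73 CPM in WT mice (SD, n = 5 each) and overlapping groups. The log2 difference was 0.21 with a standard error of 0.044 (adjusted p = 0.0308 by edgeR's quasi-likelihood method, Benjamini-Hochberg). This call was kept in 5 of 10 fits that left out 1 mouse and in 3 of 11 other settings. Without surrogate variables the adjusted p of *Stard8* was 0.874 in edgeR's test, without KO mouse 3 it was 0.0906, and without KO mouse 5 it was 0.0369. In the same order, its log2 fold change in these fits was 0.08, 0.20 and 0.22.

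Log2 fold changes of the 24 genes ran from -0.31 for *Rspo1*, a secreted enhancer of Wnt signalling, to 0.37 for *Rrad*, a Ras-related GTPase. Neither passed in edgeR's test, where the adjusted p was 0.461 for *Rspo1* and 0.728 for *Rrad*. *Tle1*, a Groucho-family corepressor picked out after its values were seen, was the only gene of the 24 without overlap. It lay between 39.6 and 43.1 CPM in KO and between 36.6 and 38.6 CPM in WT mice, with a log2 fold change of 0.14 that did not pass (adjusted p = 0.276 in edgeR's test). Over all genes tested, 1.58% had groups that did not overlap, 0.899% with every KO mouse above every WT mouse.

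Of the 17 deep-layer genes, 0 passed FDR < 0.05 in edgeR's test, while 5 had an unadjusted p under 0.05 (10.6% of all tested genes did). With DESeq2, 2 passed, *Crym* and *Pcp4*, beside 229 of all genes. The median log2 fold change of the 17 genes was 0.0060, and 9 of the 17 were above 0. The range ran from -0.29 for *Nr4a2*, a nuclear receptor of deep-layer and subplate neurons, to 0.27 for *Crym*, a thyroid hormone-binding protein (adjusted p = 0.702 and 0.129 in edgeR's test). Median log2 fold changes were thus 0.08 for the 9 genes, 0.02 for the other upper-layer genes and 0.0060 for the deep-layer genes. Without surrogate variables they were 0.04, 0.03 and 0.02. The 9 genes were chosen with the difference in *Calb1* known, and the differences between these medians were not tested.

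**Figure D2:**
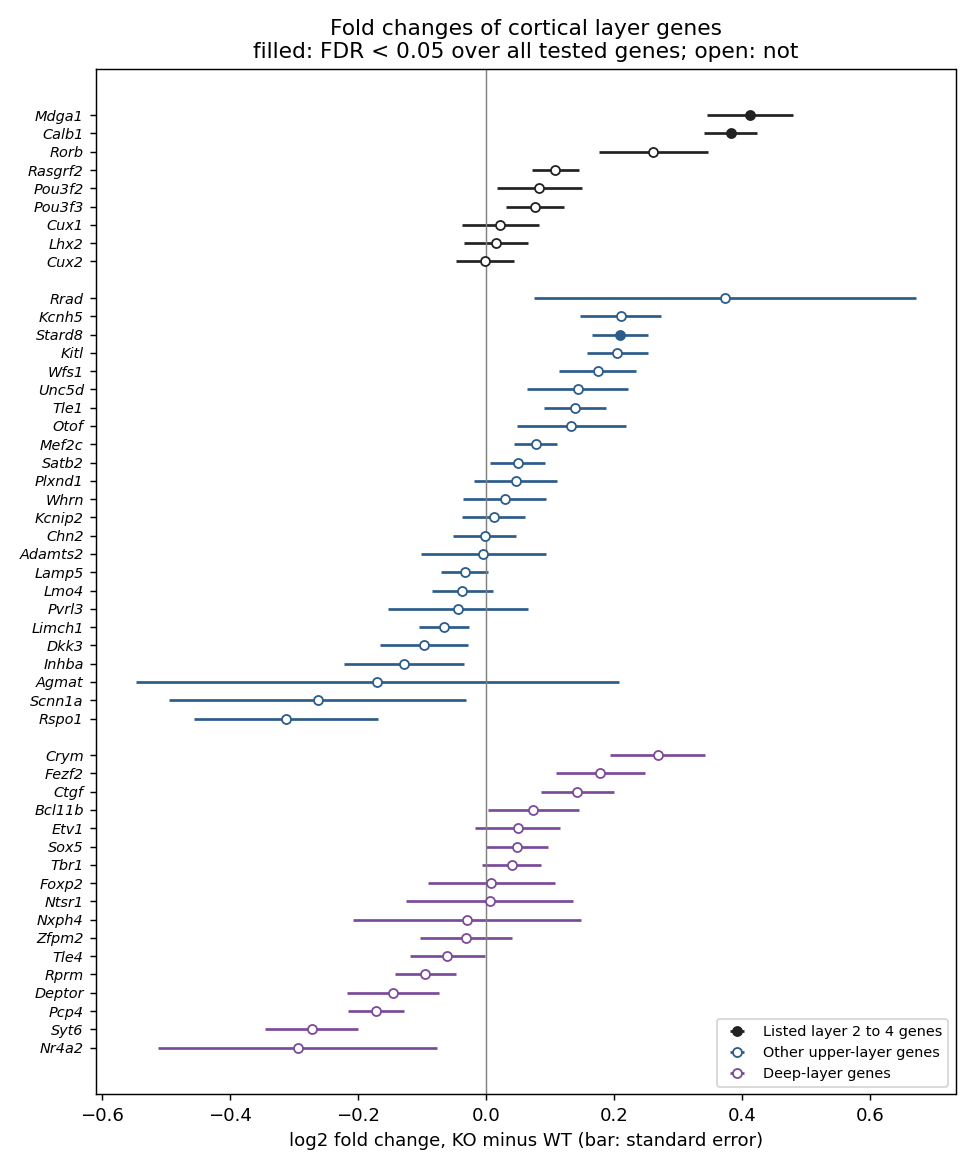
Log2 fold changes of KO against WT mice with their standard errors for the 9 listed genes (black), 24 other upper-layer genes (blue) and 17 deep-layer genes (purple), with filled points where FDR < 0.05 over all 14344 tested genes. *Mdga1* at 0.41 and *Calb1* at 0.38 stand at the top of their list, *Stard8* at 0.21 is the only other filled point, and the other genes of the blue and purple lists lie on both sides of 0.

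Genes of the same families were examined next. Of 9 such paralogs in the table, 7 were tested and 0 passed in edgeR's test, with 2 at an unadjusted p under 0.05 (10.6% of all tested genes were). With DESeq2, 0 of them passed, beside 229 of all genes. *Calb2*, which encodes the related calcium buffer calretinin, stood at 11.2 ± 0.711 CPM in KO and 8.29 ± 1.60 CPM in WT mice (SD, n = 5 each). Its log2 fold change of 0.41 (standard error 0.112) did not pass (adjusted p = 0.121 in edgeR's test), and the groups overlapped, with 10.4 CPM in the lowest KO mouse and 11.1 CPM in the highest WT mouse. *S100g*, the gene of the smaller calbindin, had 0 counts in all 10 mice, which allows at most 0.0586 to 0.0993 CPM at these depths from counting error alone.

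The other paralogs had smaller differences or lower levels. *Pou3f1* had a log2 fold change of 0.18 and *Pou3f4* of 0.05, with adjusted p-values of 0.147 and 0.941 in edgeR's test. The nuclear receptor gene *Rora* had a log2 fold change of -0.03, the exchange factor gene *Rasgrf1* of -0.04 and the adhesion gene *Mdga2* of 0.10, with adjusted p-values of 0.641 to 0.907 in edgeR's test. *Lhx9*, at 0.0296 to 0.438 CPM, was too low to be tested.

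Genes of other calcium-binding proteins were used to see whether *Calb1* moved with its biochemical class. Of 17 genes in the table, 16 were tested and 0 passed in edgeR's test, with 6 at an unadjusted p under 0.05 (10.6% of all tested genes were). With DESeq2, 1 passed, *Vsnl1*, beside 229 of all genes. Log2 fold changes were above 0 for 8 of the 16 and ran from -0.18 for *Necab1*, an EF-hand protein (adjusted p = 0.365 in edgeR's test), to the 0.41 of *Calb2*. *Vsnl1*, a neuronal calcium sensor picked out after its values were seen, was lower without overlap, at 748.5 to 832.6 CPM in KO and 849.8 to 964.5 CPM in WT mice. The log2 difference of -0.15 did not pass edgeR's test (adjusted p = 0.0578). Over all genes tested, 0.683% had every KO mouse below every WT mouse.

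Because calbindin is also made by striatal neurons and interneurons, their marker genes were set beside *Calb1*. Striatal markers, 12 in the table, summed to 291.3 to 436.3 CPM in KO and 258.7 to 520.2 CPM in WT mice, and 8 of the 10 tested had log2 fold changes above 0, with a median of 0.23. None passed in edgeR's test, 4 had an unadjusted p under 0.05 (10.6% of all tested genes did), and only *Six3* and *Isl1* were at 0 in any mouse. KO mice 1 to 5 had striatal sums of 291.3, 341.2, 333.6, 436.3 and 405.5 CPM, and WT mice 1 to 5 of 274.8, 293.2, 258.7, 263.3 and 520.2 CPM. KO mice 2 to 5 thus lay above WT mice 1 to 4, while KO mouse 1 lay among those WT mice and WT mouse 5 above all KO mice. With the striatal score (mean log2(CPM + 1) of the list) as a covariate in place of the surrogate variables, the log2 fold change of *Calb1* was 0.37. The part of striatal tissue in the *Calb1* difference was not tested.

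Interneuron markers summed to 963.6 to 1051 CPM in KO and 1005 to 1101 CPM in WT mice. In edgeR's test 0 of 9 passed, with 4 at an unadjusted p under 0.05 (again beside 10.6% of all tested genes), and these 4 were lower in KO mice. Log2 fold changes were above 0 for 2 of the 9, beside 48.1% of all tested genes, with a median of -0.05. Within genotypes, the relation of *Calb1* with neither score passed a test over the 10 mice. For the striatal score, Pearson's r was 0.12 (exact permutation p = 0.763) and Spearman's rho 0.15 (exact permutation p = 0.698), and r was -0.01 without KO mouse 5 and WT mouse 2, the mice farthest from the median of *Calb1*. For the interneuron score, r was 0.09 (exact permutation p = 0.823) and rho 0.13 (exact permutation p = 0.745), but r was 0.79 without these 2 mice.

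The same comparison was made with the layer scores. Against the other upper-layer genes, r was -0.07 (exact permutation p = 0.858) and rho 0.13 (exact permutation p = 0.750), and r was 0.53 without the same 2 mice. Against the deep-layer genes, r was -0.11 (exact permutation p = 0.779) and rho -0.21 (exact permutation p = 0.576), and r was -0.71 without them. Over these 4 relations every adjusted p was 0.858 for r and 0.750 for rho in the exact permutation test. KO mouse 5 and WT mouse 2 had the highest *Calb1* of their genotypes, and leaving them out moved the coefficients of the upper-layer, deep-layer and interneuron scores and hardly that of the striatal score.

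**Figure D3:**
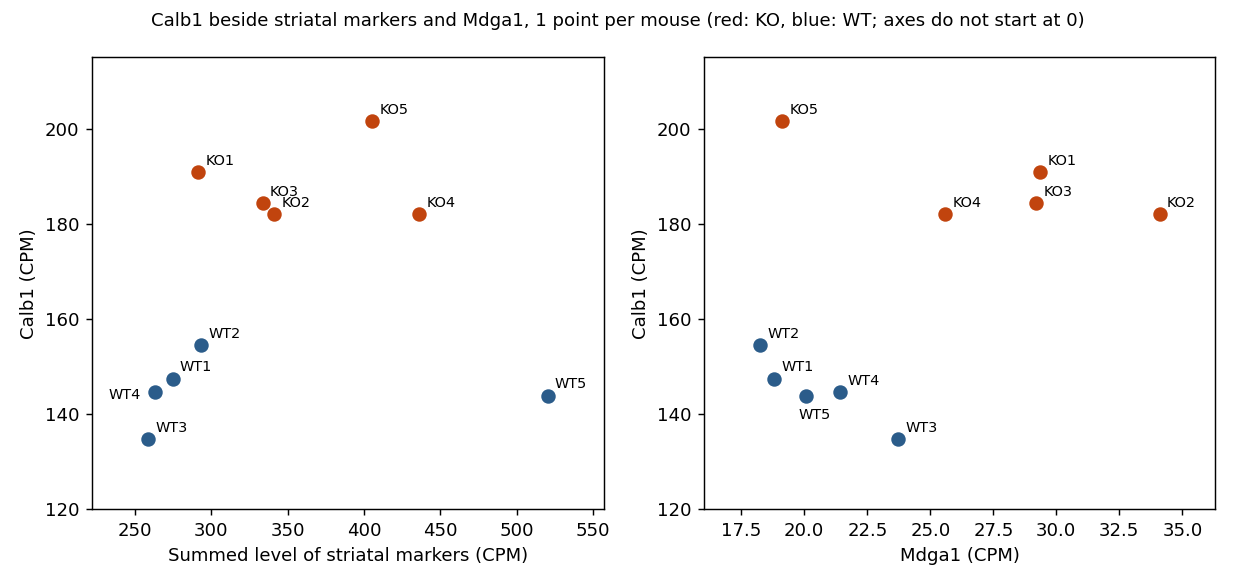
*Calb1* in CPM against the summed CPM of 12 striatal markers (left) and against *Mdga1* in CPM (right), 1 point per mouse, KO red and WT blue, on axes that do not start at 0. KO mice 2 to 5 (333.6 to 436.3 CPM) have higher striatal sums than WT mice 1 to 4 (258.7 to 293.2 CPM), WT mouse 5 has the highest at 520.2 CPM, and within genotypes *Calb1* and *Mdga1* had r = -0.78.

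Whether the 9 genes vary together between mice of a genotype was tested over all 36 pairs, a measure the choice of the genes did not use. Each value was centred on its genotype mean, and exact permutation tests ran over all 14400 orders of the mice within genotypes. None of the 36 pairs passed FDR < 0.05 by Pearson's r or by Spearman's rho, 6 had an unadjusted exact p under 0.05 for r, and r was above 0 for 22 pairs with a median of 0.22. Values of r ran from -0.78 to 0.82, and 3 pairs passed when KO mouse 4 was left out.

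Of the 6 pairs, *Rorb* with *Mdga1* had the smallest p, with r = -0.64 (exact permutation p = 0.00285, adjusted p = 0.103), rho = -0.82 and r = -0.64 without WT mice 1 and 3. *Calb1* with *Mdga1*, the genes with the largest fold changes, ran in opposite directions within genotypes, with r = -0.78 (exact permutation p = 0.00799, adjusted p = 0.144) and rho = -0.78. Without KO mouse 5 and WT mouse 2, r was -0.51. *Calb1* with *Rorb* had r = 0.73 (exact permutation p = 0.0262, adjusted p = 0.222), rho = 0.71 and r = 0.76 without those 2 mice.

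The remaining pairs were *Cux1* with *Rorb* (r = 0.82, exact permutation p = 0.0290), *Pou3f2* with *Pou3f3* (r = 0.71, exact permutation p = 0.0308) and *Lhx2* with *Mdga1* (r = 0.79, exact permutation p = 0.0422). Their rho was 0.72, 0.61 and 0.58, and adjusted p-values in the exact permutation test were 0.222, 0.222 and 0.253. Without the 2 mice farthest from the median of the first gene, r was 0.58, 0.83 and 0.19. The value of *Lhx2* with *Mdga1* thus rested on KO mice 2 and 5. *Cux1* and *Cux2*, although related in sequence, had r = -0.0049 (exact permutation p = 0.992).

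RNA quality was the recorded difference between the mice of a genotype. KO mice 1, 2 and 4 and WT mice 1, 2 and 5 had a RIN of 9.5 to 9.8, and KO mice 3 and 5 and WT mice 3 and 4 a RIN of 8.1 to 8.3. Since RIN fell into these 2 clusters, the classes were compared within genotypes, a comparison chosen after seeing the data. *Cux1* was lower in low-RIN mice by 0.21 on the log2 scale (exact permutation p = 0.01, the smallest that 100 splits allow, adjusted p = 0.09 over 9 genes). For the other 8 genes the exact permutation p lay between 0.12 and 0.87.

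The difference between KO and WT mice was also computed within each class, as means of log2(CPM + 1) in 3 against 3 and 2 against 2 mice. *Calb1* was higher in KO mice by 0.31 among high-RIN and 0.46 among low-RIN mice, and *Mdga1* by 0.61 and 0.07. *Rorb* had differences of -0.04 and 0.47, since the low-RIN WT mice 3 and 4 had the lowest *Rorb* of all mice. The difference between the classes was not tested.

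The genes most like *Calb1* within genotypes, among 14343 others and over 10 mice, were *Etfdh* (r = 0.94), *Hmmr* (r = 0.94), *Mlip* (r = 0.93), *Erh* (r = 0.93) and *Fam69a* (r = 0.93). These values are a description and share library and depth. They are the highest of 14343 values over 10 mice, and whether they exceed chance was not tested. *Hmmr* had the lowest mean level of the 5. None of the 5 is in a layer list used here, but these lists are short beside 14343 genes, so nothing is read from this. *Rorb* ranked 242 and *Mdga1* 14250 by this measure. For *Cux2* the most alike were *Smurf1* (r = 0.95), *Acd* (r = 0.94), *Sall2* (r = 0.92), *Acvr1* (r = 0.91) and *Triap1* (r = 0.91), and *Pou3f3* came first among the 9 genes, at rank 1000.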

How the data were processed

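RNA-seq of the PFC of 5 *Zbtb16* KO and 5 WT mice was analysed. The authors aligned reads to mm10 with STAR (2.7.1a), kept uniquely mapped reads and counted them with HTSeq (0.9.1, intersection-strict) on the exons of Gencode M21 protein-coding genes, and these counts were deposited without normalization. From them, CPM were computed with TMM factors, and genotypes were compared by the quasi-likelihood test of edgeR (4.0.16, R 4.3.3) with 3 surrogate variables from sva (3.50.0, on log2(CPM + 1), seed 1), edgeR's filter on low counts and Benjamini-Hochberg adjustment over 14344 genes (FDR < 0.05). Standard errors are the fold change divided by the square root of the F statistic. DESeq2 (1.42.0) was an alternative. Floors are 3 counts and cover counting error only. Exon lengths and positions come from Gencode M21 on GRCm38. Member correlations, permutations and figures used Python 3.11.15 (matplotlib 3.10.9, numpy 2.4.6, pandas 2.3.3, scipy 1.17.1).

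The 9 genes and all gene lists were chosen with earlier results of these data known. Besides the 9 genes, named genes are those of the other upper-layer, deep-layer and calcium-binding lists that passed FDR < 0.05 (or, where said, in an alternative), the extremes of each list, all paralogs but 1 that is not reported here, and the 5 genes most like *Calb1* and *Cux2*. Those picked after their values were seen are named as such. *Nectin3* and *Ccn2* were found under the symbols *Pvrl3* and *Ctgf*, and *Drd1* was not analysed here. The fit was tested on simulated counts. The alternatives changed surrogate variables, covariates, tool, normalization and filter, used each RIN class alone, blocked by replicate number or left out each mouse.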

Additional observations from a re-analysis of the deposited data

Results flagged for a closer look

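*Rasgrf2* in KO mice was the 1 result out of 18 groups checked (9 genes in each genotype) in which 1 mouse stood apart from the rest. KO mouse 2 had 200.4 CPM, while the other KO mice had 247.5 to 253.6 CPM, so that the gap made up 0.885 of the whole range. The rule used flags about 1 of 20 groups by chance, and the chance of a gap of this size was not computed. Without KO mouse 2 the log2 fold change of *Rasgrf2* was 0.15 in place of 0.11.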

How the results depend on the processing

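The log2 fold change of *Calb1* was above 0 in all 21 alternatives, and that of *Mdga1* too. For *Calb1* it was 0.34 to 0.43 when 1 mouse was left out and 0.47 among mice with a RIN under 9.5 alone. *Mdga1* ran from 0.09 to 0.64 over 11 settings and passed in 5 of them. Genes passing over all genes numbered 30 with no surrogate variables, 34 with 1, 57 with 2, 38 with RIN and 10 with the striatal score as covariate, 1 with a RIN of 9.5 or above alone, 0 with a RIN under 9.5 alone (982 and 813 at an unadjusted p under 0.05), 229 with DESeq2, and 39 (without WT mouse 3) to 248 (without KO mouse 2) when a mouse was left out. Of the 9 genes, 1, *Calb1*, passed with no surrogate variables, with RIN or with the striatal score, 0 in either RIN class, and 1 (without WT mouse 5, *Calb1*) to 3 (without KO mouse 2 and without WT mouse 1, *Rorb* added) when a mouse was left out. In the other upper-layer list 0 passed with 0, 1 or 2 surrogate variables, with RIN, with the striatal score and in either RIN class, 2 with DESeq2 and with no filter (*Kitl* and *Stard8*), and 0 to 3 when a mouse was left out. DESeq2 gave 2 calls in the deep-layer and 1 in the calcium-binding list, and leaving out a mouse gave 0 to 1, 0 to 2 and, in the paralog list, 0 to 1. With CPM by total count 1 pair of the 9 genes passed, and 0 to 3 (3 without KO mouse 4) when a mouse was left out. The causes were not tested. No pairing of the mice by replicate number was evident, though 5 pairs are too few to settle this. Same-numbered mice had correlations of -0.11 to 0.17 in their deviations, and 2 of 5 matched their own number best. With the replicate block, 24 genes passed over all genes, 1 of the 9 (*Calb1*) and 0 of the other upper-layer list. The 9 genes had at least 566 counts in each library.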

Other observations

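Markers of glia and vessels were not part of the comparisons above. All 5 astrocyte markers had log2 fold changes above 0, beside 48.1% of all tested genes, with a median of 0.11. They summed to 1129 to 1437 CPM in KO and 1091 to 1191 CPM in WT mice. Of these, 0 passed FDR < 0.05 in edgeR's quasi-likelihood test while 2 had an unadjusted p under 0.05 (10.6% of all tested genes did). Oligodendrocyte markers summed to 5562 to 8150 CPM in KO mice, with KO mouse 2 highest, and to 5784 to 7287 CPM in WT mice, and 0 of 5 passed (0 at an unadjusted p under 0.05). KO mouse 2 was also the mouse with the highest *Lhx2* and *Mdga1* and the lowest *Rasgrf2* of all 10. Microglial and endothelial markers overlapped between the genotypes, at 201.2 to 225.9 against 185.4 to 215.6 CPM and at 98.1 to 113.9 against 100.3 to 120.7 CPM. In edgeR's test 0 of either list passed, and 1 of each had an unadjusted p under 0.05. Log2 fold changes were above 0 for 1 of 5 oligodendrocyte, 1 of 4 microglial and 0 of 3 endothelial markers. Markers of the dentate gyrus, at 2.16 to 4.08 CPM in all mice, and of olfactory mitral and tufted cells, at 2.61 to 8.78 CPM with WT mouse 5 highest, were low throughout.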
